A study of Mus musculus with 6 samples.

Results

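The E2F family comprises 8 protein-coding genes of the mouse genome, E2f1 to E2f8, and is described here by the open chromatin in and around each gene. All peaks of 6 peak lists that overlapped a gene body or the 10 kb on either side of it were taken (mm10, GENCODE M21). The peaks were joined across libraries into merged regions wherever they overlapped by at least 1 bp, which gave 65 E2f regions among 169872 regions in the genome. Of these, 28 belonged to the activators E2f1, E2f2 and E2f3, and 37 to the repressors E2f4 to E2f8. The data came from Omni-ATAC-seq, in which a transposase inserts sequencing adapters into accessible DNA, on 50000 nuclei per library from mouse hearts at postnatal day 1. All nuclei had passed through a 2.2 M sucrose cushion. Each of 3 groups held 2 biological replicates. Input nuclei were wild type and were not immunoprecipitated. PCM1 nuclei were also wild type and were captured by magnet-assisted nuclei immunoprecipitation (MAN-IP) with an antibody to PCM1, a protein found at the nuclear envelope of cardiomyocytes. Myc nuclei came from Nkx2-5 Cre/+; R26RSun1-Myc-Egfp/+ hearts and were captured by MAN-IP with an antibody to the Myc tag. In these hearts Cre recombinase from the Nkx2-5 locus switches on a tagged nuclear envelope protein. The tag therefore marks every cell descended from the cardiac progenitors that expressed Nkx2-5, and not cardiomyocytes alone. The paper reports, however, that the cushion used for these libraries yields almost only cardiomyocyte nuclei. Its authors chose this cushion to keep smooth muscle and endothelial nuclei of the tagged lineage out of the maps. The share of other cell types left in these libraries was not measured here. The genotype and the antibody changed together in the Myc group and cannot be told apart.

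E2F proteins bind DNA at the start sites of genes for DNA replication and the G1/S transition. E2F1, E2F2 and E2F3 activate these genes once cyclin-dependent kinases release them from the retinoblastoma protein. E2F4 and E2F5 repress them in resting cells together with the pocket proteins p107 and p130, E2F6 represses with Polycomb-type complexes, and E2F7 and E2F8 are atypical repressors that bind DNA without a DP partner. In the newborn mouse heart, cardiomyocytes are leaving the cell cycle. Several E2f genes carry E2F binding sites in their own promoters.

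In mm10, the activators were E2f1 (ENSMUSG00000027490.17) at chr2:154559407-154569892 on the minus strand, E2f2 (ENSMUSG00000018983.9) at chr4:136172394-136196057 on the plus strand and E2f3 (ENSMUSG00000016477.18) at chr13:29906575-29986063 on the minus strand. Of the repressors, E2f4 (ENSMUSG00000014859.9) lay at chr8:105297663-105305370 on the plus strand, E2f5 (ENSMUSG00000027552.14) at chr3:14578641-14606309 on the plus strand and E2f6 (ENSMUSG00000057469.8) at chr12:16810963-16839742 on the plus strand. The atypical repressors were E2f7 (ENSMUSG00000020185.16) at chr10:110745439-110787384 on the plus strand and E2f8 (ENSMUSG00000046179.17) at chr7:48866429-48881596 on the minus strand. No 2 members shared a chromosome, so no region was counted for more than 1 of them.

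The promoters of 7 of the genes, E2f1 to E2f7, are shown first, because they lay under peaks in every library and because they differ in the words they carry. Each line gives 200 bases of reference sequence (mm10), written 5′ to 3′ on the strand of the gene and ending before the first annotated exon at the transcription start site (TSS) used. Capitals mark 2 kinds of word searched for on both strands: an E2F consensus word (TTTCGCGC, TTTGGCGC, TTTCCCGC or TTTGCCGC) and CCAAT, the word of the factor NF-Y.
E2f1, chr2:154569893-154570092, minus strand: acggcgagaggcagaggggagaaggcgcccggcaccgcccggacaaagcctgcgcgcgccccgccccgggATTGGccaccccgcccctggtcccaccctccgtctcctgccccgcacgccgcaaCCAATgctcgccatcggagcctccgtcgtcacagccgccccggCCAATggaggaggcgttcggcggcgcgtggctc
E2f2, chr4:136172074-136172273, plus strand: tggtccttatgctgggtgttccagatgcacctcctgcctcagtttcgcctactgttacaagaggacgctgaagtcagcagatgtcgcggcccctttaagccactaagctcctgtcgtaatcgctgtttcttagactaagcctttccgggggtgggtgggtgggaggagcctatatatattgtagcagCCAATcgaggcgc
E2f3, chr13:29986065-29986264, minus strand: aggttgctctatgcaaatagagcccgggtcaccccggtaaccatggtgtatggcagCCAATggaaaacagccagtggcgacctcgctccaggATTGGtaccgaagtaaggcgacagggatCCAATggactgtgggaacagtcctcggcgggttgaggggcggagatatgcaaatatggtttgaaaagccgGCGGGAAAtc
E2f4, chr8:105297463-105297662, plus strand: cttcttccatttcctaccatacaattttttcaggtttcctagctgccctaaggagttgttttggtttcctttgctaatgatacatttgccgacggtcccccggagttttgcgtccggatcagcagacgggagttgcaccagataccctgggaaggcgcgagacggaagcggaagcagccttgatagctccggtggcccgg
E2f5, chr3:14578402-14578601, plus strand: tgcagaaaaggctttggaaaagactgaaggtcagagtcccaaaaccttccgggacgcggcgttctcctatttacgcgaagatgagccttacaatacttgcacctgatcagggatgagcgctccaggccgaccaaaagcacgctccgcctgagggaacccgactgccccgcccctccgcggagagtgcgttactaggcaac
E2f6, chr12:16810709-16810908, plus strand: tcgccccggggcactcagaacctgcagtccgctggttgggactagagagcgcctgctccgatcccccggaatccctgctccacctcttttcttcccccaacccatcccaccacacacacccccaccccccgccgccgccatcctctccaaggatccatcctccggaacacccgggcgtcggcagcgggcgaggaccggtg
E2f7, chr10:110745239-110745438, plus strand: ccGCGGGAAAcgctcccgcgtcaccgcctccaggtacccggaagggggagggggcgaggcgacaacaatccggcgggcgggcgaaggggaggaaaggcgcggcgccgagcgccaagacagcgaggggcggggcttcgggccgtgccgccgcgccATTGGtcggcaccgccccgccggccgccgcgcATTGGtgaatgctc

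Further E2F words lay just outside these stretches. The first 30 transcribed bases of E2f1, which encodes the founding activator, hold 2 words on opposite strands, and E2f2 has 1 word at -81 bp from its 5′ end. E2F words are in capitals.
E2f1, chr2:154569863-154569892, minus strand: tttcGCGGCAAAaaggaTTTGGCGCgtaaa
E2f2, chr4:136172302-136172331, plus strand: gcggcatatagTTTGGCGCtaaaaaaaaaa

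Across whole peak regions, 4 of the 8 regions at the own coding start sites of these 7 genes held an E2F word, 5 words in all. They belonged to E2f1, E2f2 and E2f3, that is, to all 3 activators, and to the atypical repressor E2f7. The start-site regions of E2f4, E2f5 and E2f6 held none. A word was present in 10.3% of all 13572 TSS regions with a peak in every library, and in 6.89% when only the 600 bp around the summit were read. No E2F word in these 8 regions lay within 100 bp of the summit, taken as the median over the libraries, where 2.45% of TSS regions held one. At E2f2 this median fell at 35 bp, where no library had a summit. The E2f2 word at -81 bp did lie within 100 bp of the upstream summits of the Myc and PCM1 libraries, at -172 to -155 bp. Among the other 56 E2f regions, 1 held a word, and it lay at the start sites of 4931428F04Rik and Gm20163 upstream of E2f4. The CCAAT word, which was added after the sequences had been seen, occurred within 100 bp of the summit 3 times each at E2f1 and E2f3 and 2 times at E2f7. It was absent from the windows around the median summit of the start-site regions of E2f2, E2f4, E2f5 and E2f6, and 30.3% of all TSS regions held it. The E2f2 window did not reach the CCAAT word printed above for E2f2, which lay close to the upstream summits. A match of letters is a description of the sequence and not a measure of binding.

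Peak counts set the scale of the data. The libraries held between 75336 and 131500 peaks, the deepest being Input replicate 1. A peak's summit pileup is the number of overlapping read fragments at its highest base, recovered from the deposited fold enrichment and p-value. The median pileup over the 48861 regions with a peak in all 6 libraries (shared regions) was 113 in Input replicate 1 and between 29 and 47 in the other 5 libraries. A pair of measures puts the libraries on a common scale. The rank percentile is the percentage of a library's peaks with an equal or lower -log10 q, so that 100 is the strongest peak, and a gene without a peak is given 0. The relative pileup is the summit pileup divided by the library's median over the shared regions. Sequencing depth itself is not given by the peak lists, and the biological replicates number 2 per group.

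Every E2f gene had a peak within 1 kb of a start site in all 6 libraries (8 of 8 genes), as did 59.7% of all 21938 protein-coding genes. For 4 of the 8, E2f1, E2f3, E2f7 and E2f8, the strongest peak of the whole window was the gene's own TSS peak in every library, against 34.6% of all genes. The median TSS rank percentile of the 8 genes was 94.1, beside 90.8 for genes with a TSS peak in every library and 72.3 for all genes. No test was made of the list, since its members were chosen.

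The activators held both the strongest and the weakest start site of the family. E2f3, whose product drives entry into S phase, had TSS rank percentiles of 99.8 and 99.5 for Input, 99.7 and 99.8 for Myc and 99.7 and 99.6 for PCM1. It ranked above every other member in all 6 libraries, and its mean of 99.7 ± 0.117 (SD, n = 6) was at or above that of 99.0% of genes. E2f1 stood at 98.4 and 95.0 for Input, 98.3 and 97.0 for Myc and 97.8 and 96.2 for PCM1 (97.1 ± 1.31, n = 6). Its groups overlapped. E2f2, the third activator, stood at 56.0 and 50.1 for Input, 79.9 and 76.1 for Myc and 61.8 and 45.6 for PCM1 (61.6 ± 13.9, n = 6). Both Myc libraries lay above the other 4, and E2f2 was the lowest member in each library.

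Among the repressors, E2f8 was highest, at 97.9 and 97.5 for Input, 98.5 and 98.7 for Myc and 98.3 and 96.4 for PCM1 (97.9 ± 0.860, n = 6), and the Myc values exceeded the rest by small margins. E2f5, a partner of the pocket protein p130, stood at 97.0 and 96.7 for Input, 96.6 and 95.4 for Myc and 95.8 and 93.7 for PCM1 (95.9 ± 1.21, n = 6). Both Input values of E2f5 were above the other 4, by small margins. E2f4, the main E2F of resting cells, stood at 93.9 and 88.6 for Input, 96.0 and 95.7 for Myc and 92.1 and 87.4 for PCM1 (92.3 ± 3.60, n = 6), with both Myc values above the other 4. For E2f7 the percentiles were 94.2 and 89.8 for Input, 96.3 and 94.3 for Myc and 83.2 and 85.4 for PCM1 (90.5 ± 5.33, n = 6). The atypical repressor E2f7 was thus lowest in both PCM1 libraries and highest in both Myc libraries, although the Input and Myc values lay close together. E2f6 stood at 81.1 and 79.7 for Input, 91.6 and 83.2 for Myc and 77.0 and 66.9 for PCM1 (79.9 ± 8.10, n = 6), and here too both Myc libraries were above the other 4. The share of all genes with both Myc values above the other 4 was not counted, so this is not a trait of the family. Start sites in general were higher in Myc. Over all TSS regions the median log2 difference in summit pileup was 0.07 for Myc against Input and 0.25 for Myc against PCM1.

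**Figure D1:**
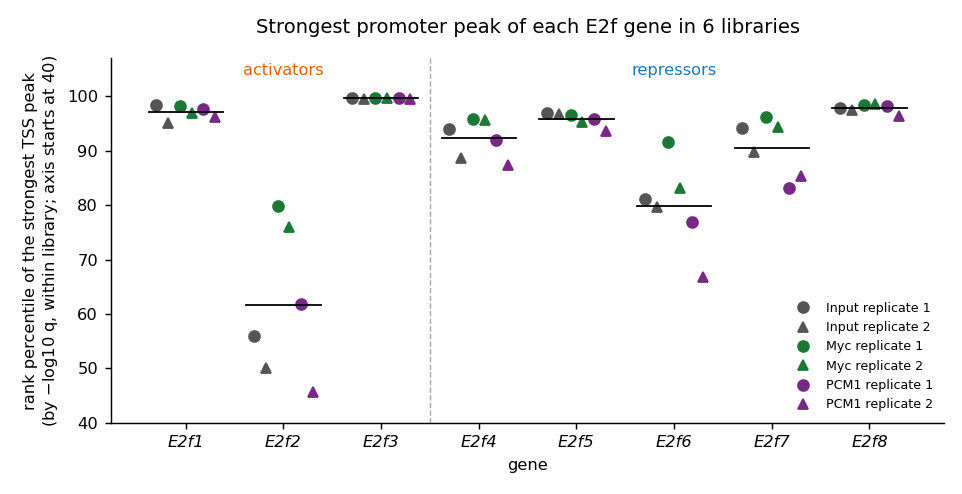
Rank percentile of the strongest peak within 1 kb of a coding start site (vertical axis, starting at 40) for each E2f gene, with 1 point per library, coloured by group, and a line at the mean of the 6 libraries. E2f3 sits at 99.5 or above in every library, whereas E2f2 spreads from 45.6 to 79.9.

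In descending order of the mean, the genes ran E2f3, E2f8, E2f1, E2f5, E2f4, E2f7, E2f6 and E2f2. By range over the 6 libraries, only E2f3 was separated from its neighbour, since its 6 values did not overlap those of E2f8. Each other pair of neighbours overlapped in range, including E2f6 (66.9 to 91.6) and E2f2 (45.6 to 79.9). Within each library, however, E2f7 was above E2f6 and E2f6 was above E2f2.

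The activator and repressor classes were not separated by their start sites. The mean TSS rank percentile was 86.1 ± 4.91 for the activators and 91.3 ± 3.48 for the repressors (SD, n = 6 libraries). The activators were lower in 6 of 6 libraries, by -8.07 and -8.94 points for Input, -3.16 and -2.50 for Myc, and -2.82 and -5.48 for PCM1 (mean -5.16 ± 2.81). That sign came from 1 gene: without E2f2, a comparison added after its values were seen, the activators were higher in 6 of 6 libraries, by 7.12 ± 3.16 points. The class medians were 97.1 for the activators and 92.3 for the repressors. With the strongest peak anywhere in the window in place of the TSS peak, the difference was 0.486 ± 1.51 points and positive in 4 of 6 libraries. Members are not replicates of a class, so no test was made.

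Counting every region of a window, own and neighbouring start sites included, the genes differed in how densely they were covered. E2f4 had 10 merged regions in its window, or 3.61 per 10 kb, at or above 99.8% of genes. E2f2 had 11 regions and 2.52 per 10 kb, at or above 96.5% of genes. E2f5 was the sparsest, with 2 regions and 0.420 per 10 kb, at or above 24.6% of genes. The remaining genes lay between 1.21 (E2f3, 12 regions over a long gene) and 1.85 (E2f6, 9 regions). The median was 1.67 per 10 kb for the family and 1.02 for all protein-coding genes.

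Of the 65 E2f regions, 27 (41.5%) had a peak in all 6 libraries, against 28.8% of all regions. The split was 12 of 28 for the activators and 15 of 37 for the repressors. All 9 regions over an own coding start site were shared by the 6 libraries, whereas 18 of the other 56 were. A peak in 1 library only was found for 10 regions (15.4%, against 30.4% of all regions), with rank percentiles of 44.8 or below. By position, 25 regions lay in introns, 17 downstream and 14 upstream of the gene, 5 in UTR exons and 4 in coding exons. The regions at start sites were also longer, with a median of 904 bp against 388.5 bp for the others.

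**Figure D2:**
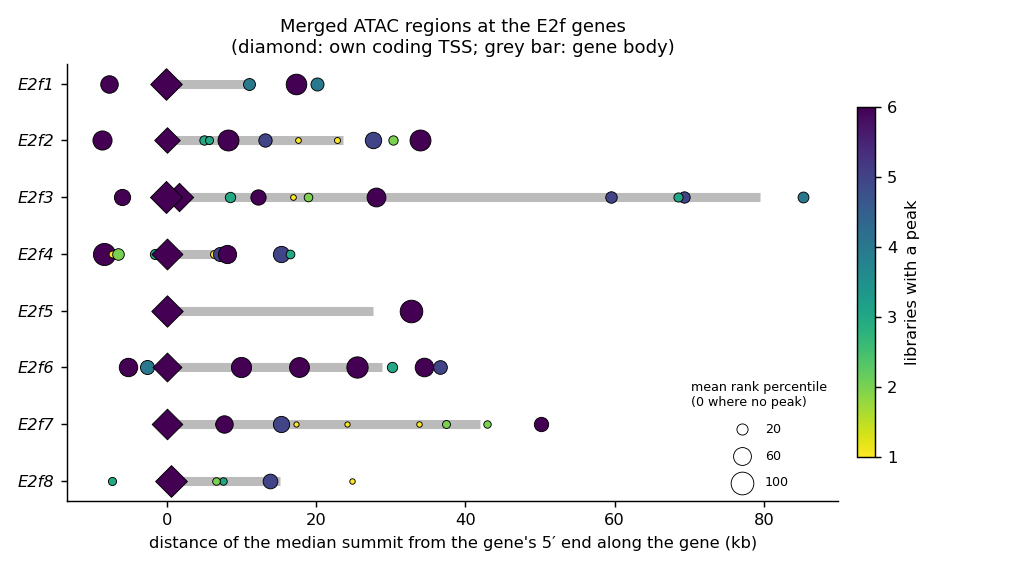
Merged regions in the window of each E2f gene, placed by the distance of the summit from the gene's 5′ end in kb (horizontal axis), with colour for the number of libraries with a peak, marker size for the mean rank percentile, diamonds for own coding start sites and grey bars for gene bodies. Regions found in all 6 libraries sit at every start site, and E2f5 has only 2 regions, both shared by all libraries.

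E2f3 carried 2 shared start-site regions. The upstream one (-145 bp from the 5′ end) had summit pileups of 1251 and 321 for Input, 385 and 411 for Myc and 297 and 280 for PCM1. The one over its downstream coding TSS (1592 bp) had 374 and 98 for Input, 133 and 103 for Myc and 60 and 65 for PCM1. The downstream promoter, which gives the shorter E2F3b form, was therefore the lower of the pair in every library, with rank percentiles from 65.0 to 88.5. E2f3 had 3 further shared regions, in introns at 12275 bp and 28006 bp and upstream at -6067 bp. E2f1 had 3 shared regions, at its start site (-115 bp), upstream (-7719 bp) and over the start site of Actl10 (17296 bp). E2f2 had 4, of which the one at 8167 bp lay in coding exon 3 at the start of a noncoding E2f2 transcript and had a higher pileup than the gene's own start site in every library, with of 194 and 47 for Input, 98 and 95 for Myc and 60 and 61 for PCM1, against 50 and 23, 61 and 54, and 26 and 20 at the start site.

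Several repressors shared their windows with strong neighbouring promoters. The strongest E2f5 region was not at its own start site but at that of 1810022K09Rik (32747 bp), with pileups of 862 and 249 for Input, 265 and 280 for Myc and 152 and 169 for PCM1. It exceeded the E2f5 start site in every library (502 and 167, 206 and 182, and 114 and 98). For E2f4, the region at the start sites of 4931428F04Rik and Gm20163 (-8474 bp) had pileups of 478 and 138 for Input, 177 and 170 for Myc and 113 and 85 for PCM1. The E2f4 start site itself (5 bp) had 313 and 76, 175 and 172, and 82 and 66, close to the neighbour in Myc and below it elsewhere. E2f6 had the most shared regions, 6, of which 1 lay at its own start site, 3 in introns, 1 farther upstream and 1 downstream. E2f8, by contrast, had 1 shared region, at 505 bp, with pileups of 580 and 184 for Input, 269 and 277 for Myc and 173 and 132 for PCM1. That region also covered the start site of the noncoding gene Gm2788.

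Few E2f regions belonged to 1 group. Both Input libraries and no others had a peak at 2 regions, in E2f3 introns at 18886 bp and E2f7 introns at 37419 bp (3.08% of 65, against 1.08% of all regions). Both Myc libraries and no others had a peak at 2 regions (against 1.84% of all). One lay at -6556 bp from E2f4 near Gm20163, with Myc pileups of 60 and 68 and rank percentiles of 64.0 and 69.2, and the other at 42845 bp downstream of E2f7, with pileups of 8 and 14. No E2f region was held by both PCM1 libraries alone (0.254% of all regions). One region, at the start site of 1700003F12Rik downstream of E2f1 (20128 bp), was present in both Input and both Myc libraries (99 and 20, and 32 and 37) and in neither PCM1 library, a pattern held by 2.26% of all regions. Presence depends on depth, so a missing peak means that none was called at this depth. All 6 libraries are bulk, and fewer open nuclei cannot be told apart from less accessibility per nucleus.

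The 27 shared E2f regions were then compared between groups with limma on log2 summit pileup, centred on each library's median, with Benjamini-Hochberg adjustment over all 48861 shared regions and a call at an adjusted p under 0.05. Against Input, no E2f region was called in either MAN-IP group. Myc against Input called 25 regions in all (0.0512%), and 6 of 27 E2f regions had an unadjusted p under 0.05, against 23.2% of all regions. PCM1 against Input called 18 regions in all (0.0368%), and 8 of 27 E2f regions had an unadjusted p under 0.05, against 21.2%. The lowest adjusted p of an E2f region by limma was 0.0907 for Myc and 0.104 for PCM1. These 2 comparisons share the Input libraries. The absence of calls depended on the variance model, since a prior variance that follows intensity called 5 E2f regions for Myc and 6 for PCM1, of 6493 and 5271 regions in all.

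Myc against PCM1 compares tagged nuclei of the Nkx2-5 lineage with PCM1-marked nuclei, both taken after the same cushion. This comparison called 4 of the 27 E2f regions (14.8%), against 17.7% of all regions. Of these, 3 were higher in Myc (9.24% of all regions) and 1 was lower (8.45%). An unadjusted p under 0.05 was reached by 9 of 27 (35.8% of all regions). All 4 called regions lay in the windows of repressor genes, but with centring on TSS regions activator regions were called as well. The summits of the called regions at 8080 bp (E2f4) and 50107 bp (E2f7) lay beyond the 3′ end of the gene, in the flank. The median log2 difference was 0.23 over the 15 repressor regions and -0.05 over the 12 activator regions. It was -0.00 over all shared regions and 0.25 over all TSS regions, of which 17.8% were called higher and 3.39% lower in Myc. The median over all 27 E2f regions was 0.17.

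Of the 4, only the E2f7 region lay at a member's own coding start site. Its pileups were 285 and 78 for Input, 166 and 136 for Myc and 40 and 46 for PCM1, which gave relative pileups of 2.52 and 2.60, 3.61 and 2.89, and 1.33 and 1.59. All groups were separate, with Myc highest and PCM1 lowest, and the Myc against PCM1 difference was 1.15 ± 0.20 (log2, SE), or 2.22-fold (limma, adjusted p = 0.0172). A second E2f7 region, 50107 bp from the 5′ end and near the small nucleolar RNA gene Gm23698, had relative pileups of 0.434 and 0.400 for Input, 0.717 and 0.617 for Myc and 0.233 and 0.276 for PCM1. All groups were again separate, and the difference was 1.39 ± 0.20 (limma, adjusted p = 0.0138). With 2 libraries per group separation was frequent: Myc and PCM1 were separate at 15 of the 27 E2f regions, and each was separate from Input at 17. The share over all regions was not counted. Its strongest summits did not lie at the same bases, since those of Myc were at 49295 and 49299 bp from the 5′ end and those of PCM1 at 50110 and 50116 bp. The value there compares neighbouring elements within 1 merged region rather than a single site. Neither element belonged to 1 group: Input replicate 1 had a second, weaker peak at the first element (49270 bp) and Myc replicate 1 at the other (50153 bp).

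In E2f6, the called region lay in an intron at 25427 bp. Relative pileups were 2.35 and 2.20 for Input, 2.35 and 2.53 for Myc and 1.30 and 1.45 for PCM1, so Input and Myc lay close together and PCM1 was lowest. The Myc against PCM1 difference was 0.83 ± 0.18 (log2, SE; limma, adjusted p = 0.0261). The 150 bases around its median summit carried 1 CCAAT word, in capitals, and no E2F word, and are shown because this intronic site had a higher pileup than the E2f6 start site in 5 of the 6 libraries.
E2f6, chr12:16836315-16836464, plus strand: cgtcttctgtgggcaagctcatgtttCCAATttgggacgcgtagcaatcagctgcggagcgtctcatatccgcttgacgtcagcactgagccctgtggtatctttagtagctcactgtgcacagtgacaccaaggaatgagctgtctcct

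The region called lower in Myc lay 8080 bp from the 5′ end of E2f4, at the start site of the neighbouring gene Elmo3. Its relative pileups were 1.00 and 1.07 for Input, 0.870 and 0.745 for Myc and 1.43 and 1.21 for PCM1. PCM1 was highest and Myc lowest, with a difference of -0.71 ± 0.20 (log2, SE; limma, adjusted p = 0.0454). The strongest summits of this region were spread over more than 200 bp between libraries, so the value may not compare a single site. The E2f2 start site did not pass, although its Myc values stood apart. There the relative pileups were 0.442 and 0.767 for Input, 1.33 and 1.15 for Myc and 0.867 and 0.690 for PCM1. Myc minus Input was 1.08 ± 0.29 (limma, adjusted p = 0.0937) and Myc minus PCM1 was 0.67 (limma, adjusted p = 0.134). The E2f2 region also held 2 summits, between -181 and -155 bp and between 242 and 267 bp from the 5′ end, and the stronger of them differed between libraries.

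**Figure D3:**
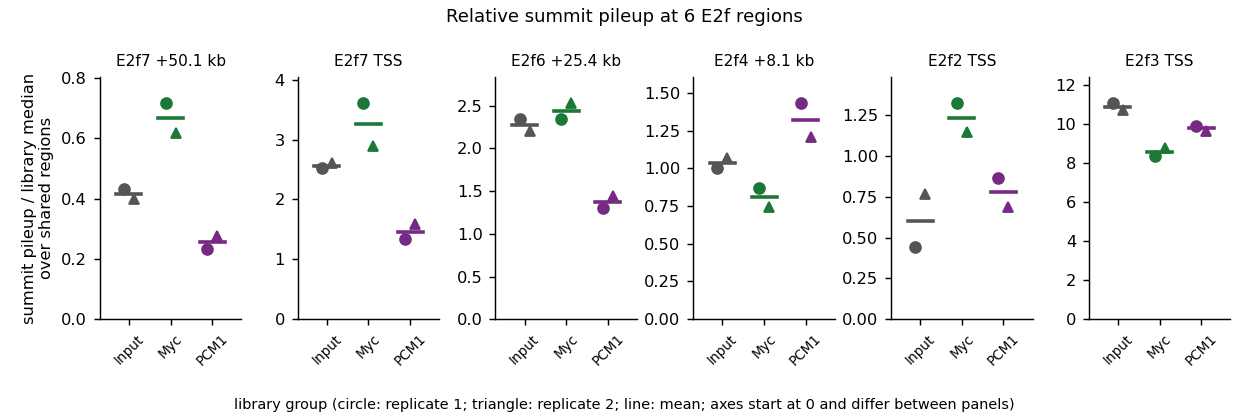
Relative summit pileup (summit pileup divided by the library's median over shared regions, vertical axis from 0) at 6 E2f regions in the Input, Myc and PCM1 groups, where circles are replicate 1, triangles replicate 2 and lines the group mean. PCM1 is lowest at both E2f7 regions and at the E2f6 intron, and highest at the region 8080 bp from the E2f4 5′ end.

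**Figure D4:**
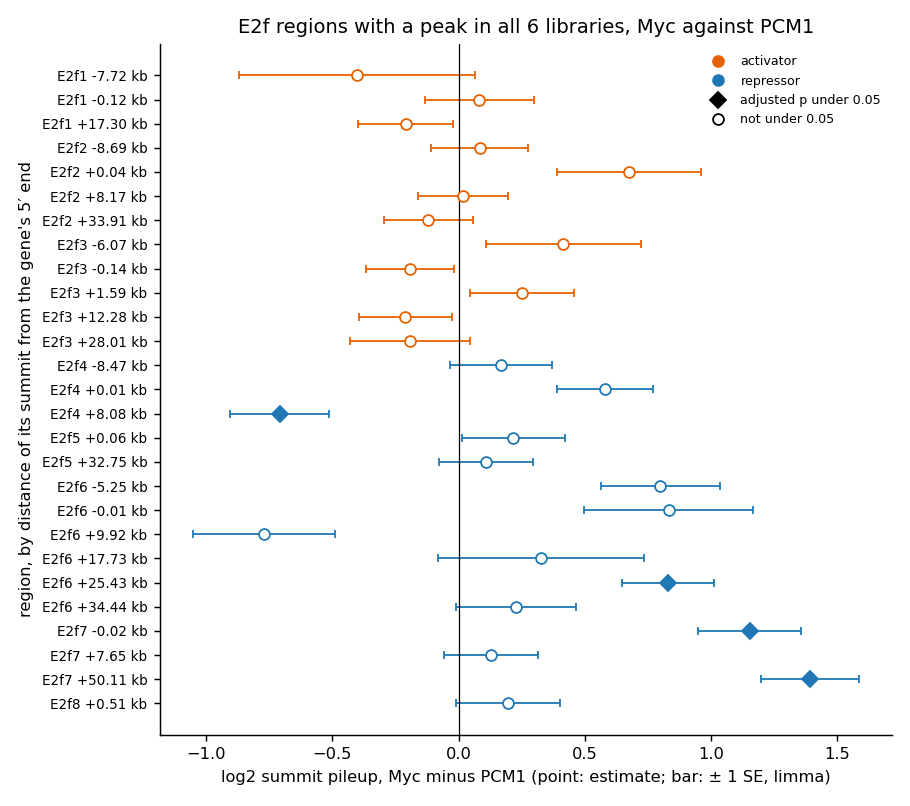
Log2 difference in summit pileup between Myc and PCM1 (horizontal axis, estimate ± 1 SE from limma) for the 27 E2f regions with a peak in all libraries, with filled diamonds for an adjusted p under 0.05. The estimates run from -0.77 to 1.39. The 4 regions called with centring on all shared regions lie in the windows of repressor genes.

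The calls, though not the direction, changed when single libraries were left out. Without Myc replicate 1, Myc replicate 2 or PCM1 replicate 2 no E2f region was called, and no region of the genome was, while 1 was called without PCM1 replicate 1. Leaving out Input replicate 1 gave 3 calls and Input replicate 2 gave 2. The differences themselves kept their size, at 1.00 to 1.32 for the E2f7 start site, 1.26 to 1.51 for the other E2f7 region, 0.74 to 0.89 for E2f6 and -0.89 to -0.59 for E2f4 (log2, over the 6 fits that each left out 1 library). The fits without an Input library could hardly move a Myc minus PCM1 difference, so only those without a Myc or PCM1 library checked its size. With the deposited fold enrichment in place of pileup, none of the 4 was called and the E2f7 start-site difference was 0.24. Centred on TSS regions instead of all regions, 7 E2f regions were called, 2 higher and 5 lower in Myc. The 2 higher were the E2f7 regions. The 5 lower included activator regions, at E2f1 (17296 bp) and E2f3 (12275 bp and the start site at -145 bp), beside E2f4 (8080 bp) and E2f6 (9923 bp). That centring moved the median of all shared regions to -0.40 and the genome-wide split from 4513 higher and 4127 lower to 1671 higher and 13999 lower.

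Markers of the cell types in the heart also moved between Myc and PCM1. Of 6 cardiomyocyte markers, all had a TSS peak in every library, and Myh6 (-1.56), Tnnt2 (-1.02) and Tnni3 (-0.97) were called lower in Myc at their strongest start-site region (log2 Myc minus PCM1). Their mean TSS rank percentile was 92.0 to 94.5 in Input, 89.9 to 91.3 in Myc and 92.1 in both PCM1 libraries. Of the other lists of 6, 1 gene each was called higher in Myc: the fibroblast marker Dcn (0.89), the endothelial marker Tek (1.01), the smooth muscle marker Myh11 (0.71) and the erythroid marker Klf1 (0.75). The mean fibroblast percentile was 60.6 to 77.3 in Input, 73.9 to 75.8 in Myc and 50.8 to 59.5 in PCM1, and the endothelial one 51.6 to 74.6, 76.1 to 78.5 and 57.8 to 65.2. For smooth muscle and pericyte genes it was 49.5 to 73.0, 51.6 to 63.2 and 32.5 to 51.5, and for erythroid genes 22.8 to 26.6, 20.7 to 21.2 and 15.8 to 22.1. Immune genes stood at 7.99 to 21.8 in Input and between 0 and 4.61 in the other 4 libraries, with Ptprc, Csf1r and Cd68 at 0 throughout, as were the globin genes Hbb-bs, Hbb-bt and Hba-a1. The part of these markers in the E2f differences was not tested.

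The genes that work with E2F proteins were open at their start sites in nearly every library. A TSS peak in all 6 libraries was found for 5 of 5 DP partners and pocket proteins, 6 of 6 genes of the MuvB complex and B-Myb, 15 of 15 G1/S cyclins, kinases and inhibitors, and 6 of 6 genes of the E2F6 complex. It was found for 20 of 21 classical E2F targets. The exception was Tk1, the thymidine kinase of S phase, which stood at rank percentiles of 67.1 and 0 for Input, 71.9 and 71.7 for Myc and 34.0 and 0 for PCM1. Against Input no listed gene was called in either group. Between Myc and PCM1, 1 of 5, 2 of 6, 3 of 15, 0 of 6 and 1 of 20 tested genes were called higher in Myc, in that order, and none lower, beside 17.8% and 3.39% of all TSS regions. These were the p107 gene Rbl1 (0.93), the MuvB genes Lin9 (0.90) and Lin54 (0.78), the cyclin gene Ccne2 (0.63), the kinase inhibitors Cdkn2a (1.75) and Cdkn2b (0.93), and the replicative helicase subunit Mcm4 (1.11), all as log2 Myc minus PCM1.

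E2f2 varied most between libraries. The 3 protein-coding genes outside the family with the closest TSS rank percentiles to it over the 6 libraries were Ccdc13, Mlph and Il12b, with mean absolute differences of 4.66, 4.99 and 5.19 points.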

How the data were processed

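The members and the gene lists were chosen with earlier results of these data known. The authors trimmed the reads and aligned them to mm10, removed duplicates and called peaks for each library at a q-value of 0.05. The submitters' processing notes name Bowtie2 2.3.3.1, Picard 2.2.1, bedtools 2.7.1, FastQC 0.11.5, HOMER and MACS2 2.1.0.20160309. Each deposited peak holds a score (a whole number made from the q-value), a fold enrichment ratio over the local background at the summit, a -log10 p-value, a -log10 q-value and the offset of the summit. Summit pileup and background were solved from the fold and the Poisson p-value, and at least 99.9977% of pileups were whole within 0.02. Pileups are not library counts, since they are given only where a peak was called.

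Peaks overlapping by at least 1 bp were merged. A TSS peak lay within 1 kb of a start site of a protein-coding transcript. limma 3.58.1 (R 4.3.3) was fitted, with 1 mean per group, to the log2 pileup of the 48861 regions with a peak in all 6 libraries, after median centring and with Benjamini-Hochberg adjustment. Where a library held several peaks in a region, the strongest was used. The steps were tested on simulated data. Sequence was read from GRCm38 (mm10) with Python 3.11.15, and 1 of the 8 promoter sequences is not reported here. Named were the 8 members with their neighbours, the 3 genes closest to the most variable member, and listed genes that were called or lacked a TSS peak. The CCAAT and CTCF words, regions with summits within 200 bp and the classes without E2f2 were added after values had been seen. Whether libraries with the same replicate number share a preparation is not stated. The correlations of their deviations between groups were 0.00717, -0.00413 and 0.00584, which cannot settle this. Replicates were separate biological samples. Alternatives were the fold enrichment, other centrings, a trended variance, stricter q-values, narrower windows, equal peak numbers, a replicate block and leaving out each library.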

Additional observations from a re-analysis of the deposited data

How the results depend on the processing

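Depth and 2 libraries per group limit these comparisons, and the presence of a peak moves with depth. The count of E2f genes with a TSS peak in every library stayed at 8 when 1 library was left out, and shared E2f regions ranged from 27 to 33. With 2 kb flanks, 17 regions of 43 were shared. The activator minus repressor difference was -8.85 points when ranked by fold enrichment, 0.486 with the strongest peak of the window, 4.60 with medians over the members and 7.12 without E2f2. Leaving out 1 library gave -5.69 to -4.40. Against Input, 2 E2f regions were called in Myc when centred on TSS regions and 5 with an intensity trend, which also called 6 in PCM1. Leaving out 1 library gave 0 in both. For Myc against PCM1, 0 were called on log2 fold enrichment, 7 when centred on TSS regions, 8 with an intensity trend and 2 of the 22 regions whose summits lay within 200 bp of each other, an alternative chosen after seeing the data. Leaving out 1 library gave 0 to 3 calls: 3 without Input replicate 1, 2 without Input replicate 2, 1 without PCM1 replicate 1, and 0 without PCM1 replicate 2 or either Myc library. The 4 called regions kept their direction in every alternative that fitted them. The replicate block, the stricter q-value and the trend left the estimates unchanged, so they did not check the direction. The called regions at 50107 bp of E2f7 and 8080 bp of E2f4 were not among the 22. In the alternatives with all 6 libraries, limma adjusted p ran from 6.83e-06 to 0.449 at the E2f7 start site and 0.00226 to 0.0598 at the other E2f7 region. It ran from 0.000901 to 0.272 in E2f6 and 0.00810 to 0.227 at E2f4. Over all regions, the calls for Myc against PCM1 numbered 8640, against 1137 on fold enrichment, 15670 when centred on TSS regions, 14097 with the trend, 5390, 3975 and 2171 without Input replicate 1, Input replicate 2 and PCM1 replicate 1, and 0 without any of the other 3 libraries. Myc against Input called 25 regions, against 3 on fold enrichment, 9 after quantile normalisation, 2250 when centred on TSS regions, 6493 with the trend and 0 without any 1 library. PCM1 against Input called 18, against 7, 37, 34, 5271 and 0 to 1 in the same order. The cause of these shifts was not tested.

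With the replicate number as a block, 4 E2f regions were called for Myc against PCM1, all higher in Myc, and 0 in both comparisons with Input, beside 6719, 0 (Myc) and 10 (PCM1) regions in all. The E2f4 region was then not called (limma, adjusted p = 0.0607). The replicates share a number and no known pairing.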

Other observations

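One of the regions with a peak in Myc libraries only (-6556 bp from E2f4) and the element under the Myc summits of the E2f7 region at 50107 bp both carried the core of the motif of the insulator protein CTCF, read as 12 bases of which 4 were free, on either strand. Input replicate 1 also had a peak at this E2f7 element, with its summit at 49270 bp. The motif was chosen after the E2f4 and E2f7 sequences had been seen. Each is shown on the plus strand of the reference (mm10), with the core in capitals.
E2f4, chr8:105291116-105291145, plus strand: cactctggcGCCACCTTGTGGtacagtgtc
E2f7, chr10:110794700-110794729, plus strand: cagtactgtCCACAAGGTGGCagtagcgtc

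The same core occurred at 6 other places in E2f regions. A second one lay at 49863 bp in the same E2f7 region, and 1 lay in a region downstream of E2f2 (27639 bp) with a peak in 5 libraries. The other 4 lay in shared regions that were not called between Myc and PCM1: E2f1 at 17296 bp, E2f2 at its start site (35 bp) and at 8167 bp, and E2f6 at its start site (-12 bp).

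Away from start sites, in the 200 bp around the summit, this core was present in 13.2% of 2977 regions with a peak in both Myc libraries alone. It was present in 2.86% of 1747 regions of both Input libraries alone, in 1.74% of 403 regions of both PCM1 libraries alone and in 8.04% of 35289 regions of all 6 libraries. Among the shared regions away from start sites, 25.4% of the 2103 called higher in Myc than in PCM1 held the core, against 2.37% of the 3667 called lower. These are shares of regions in the same libraries, given without a test.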
